A study of Homo sapiens with 12 samples.

Results

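The protocadherin and cadherin genes comprised every gene whose symbol in the platform annotation began with PCDH, or with CDH and a number, on a probe set with 1 symbol. There were 64 of them among the 18417 genes measured, each represented by its brightest probe set. They were divided by symbol into 18 genes of the PCDHB cluster, 13 genes of the PCDHA and PCDHG clusters, 11 other protocadherins, 17 classical cadherins of type I or type II and 5 other cadherins, of which CDH4-AS2 is an antisense RNA. The PCDHA and PCDHG group held 12 PCDHA genes and only PCDHGB4 of the gamma cluster. CDH13 and CDH4 were not analysed here, and 5 symbols found only on probe sets with several symbols, among them PCDH11X, PCDHA9, PCDHAC1 and PCDHAC2, were left out.

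Gene expression was measured on 12 Affymetrix arrays of total RNA from SK-mel147, an established human melanoma cell line, after lentiviral short hairpins against the genes of the H2A.Z isoforms, histone variants that replace H2A in part of the nucleosomes. The tested hairpins were sh_37 and sh_38 against H2AZ2 and sh_83 and sh_84 against H2AZ1, and the controls were scrambled and luciferase hairpins, with 2 arrays for each of the 6 hairpins. The series is titled for proliferation and drug sensitivity of melanoma. All groups thus share 1 cell line and a lentiviral infection, and the labels do not say that replicates came from separate cultures, so that the spread behind every p-value is that among these arrays and may be technical, and the number of arrays limits the precision. Replicate 2 of sh_84 carries another hairpin name in its RNAi label than in its title, by which it was grouped here.

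H2AZ2 read 9.94 and 9.83 on the log2 scale with sh_37 and 10.43 and 10.35 with sh_38, against 10.94 to 11.05 on the 4 control arrays. H2AZ1 read 9.79 and 9.94 with sh_83, against 12.12 to 12.38 on the control arrays. The arrays labelled sh_84 read 12.10 and 12.15 for H2AZ1, which was not measurably lower there (limma adjusted p = 0.859). They are part of every value given for the H2AZ1 hairpins together. Of the melanocyte lineage markers, 7 of 8 were measured. PMEL, MLANA, TYR, TYRP1 and EDNRB lay among the dimmest 25% of genes. SOX10, which averaged 10.47, and MITF, which averaged 8.29 on the control arrays, did not. The measured pigment genes and EDNRB were thus at or near the low end of the array in this line, while both transcription factors were not.

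Cadherins are membrane proteins that join cells through calcium-dependent contacts between their extracellular repeats. Classical cadherins bind catenins, which link them to actin, whereas clustered protocadherins give each neuron a set of surface labels and lack the catenin-binding tail. The alpha, beta and gamma clusters lie side by side on human chromosome 5. Each PCDHB gene is a single large exon with a promoter of its own, and in neurons the promoters of the clusters are chosen in a largely random way with help from CTCF, a DNA-binding protein that shapes chromatin loops.

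Promoter sequences are shown because the PCDHB genes were the group that moved most together. RefSeq promoter windows of GRCh38.p14, from 250 bases before to 50 bases after a gene's start, were found for 46 of the 64 genes. PCDHB6, PCDHB11, PCDHB17P and PCDHB18P were among those without an entry. The 9 letters GGTGGCGCT, a string chosen after the sequences had been seen, were present in 13 of 14 PCDHB windows and in 0 of 12 PCDHA and PCDHG windows, against 0.501% of all 35116 windows on either strand. The match began between 84 and 2 bases before the start of each gene. Below are the 30 bases around each match, on the plus strand in the order of the genes along the chromosome, with the match in capitals.

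PCDHB2: acgcggGGTGGCGCTgcagccttagaagta
PCDHB3: acgcatGGTGGCGCTgttgactaagaaggc
PCDHB4: acgcagGGTGGCGCTgcaggctaagttgtg
PCDHB5: acgcctGGTGGCGCTgcaggctaagagtgt
PCDHB7: acgcaaGGTGGCGCTgctggctaaaaagag
PCDHB8: acccgtGGTGGCGCTgcaggataagaaggc
PCDHB16: acgcgtGGTGGCGCTgcaggttaagatgac
PCDHB9: ccacaaGGTGGCGCTgcagactgaagagac
PCDHB10: ccacacGGTGGCGCTgcaggctaaagagac
PCDHB12: acgcgtGGTGGCGCTgcaggataatatcaa
PCDHB13: acgcgtGGTGGCGCTgcaggataagaaggc
PCDHB14: acacatGGTGGCGCTacaggataagacgaa
PCDHB15: acgcatGGTGGCGCTgcaggctaaggcttc

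The capitals are the same in every line by construction, while most lines also share letters outside the match, such as the acgc at the left end of 9 lines. Among these 13 genes, 11 passed the test with sh_37, and PCDHB4 and PCDHB5 did not, against 13 of 18 in the whole cluster and 5.72% of all genes called upward. PCDHB11 and PCDHB18P, which have no window here, passed as well. The whole 300-base windows are given for PCDHB7, the member with the largest difference, at chr5:141172394-141172693, and for PCDHB1, the 1 PCDHB window without the exact match, at chr5:141051124-141051423, both on the plus strand. The PCDHB1 window holds ggtggtgct, 1 letter away from the match, and near matches were not counted in any window.

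PCDHB7: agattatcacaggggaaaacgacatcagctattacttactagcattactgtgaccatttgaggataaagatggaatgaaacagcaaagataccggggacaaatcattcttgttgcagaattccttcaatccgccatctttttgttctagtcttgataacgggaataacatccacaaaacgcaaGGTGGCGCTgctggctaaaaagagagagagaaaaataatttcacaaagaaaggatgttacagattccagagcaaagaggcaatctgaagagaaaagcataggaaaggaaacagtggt
PCDHB1: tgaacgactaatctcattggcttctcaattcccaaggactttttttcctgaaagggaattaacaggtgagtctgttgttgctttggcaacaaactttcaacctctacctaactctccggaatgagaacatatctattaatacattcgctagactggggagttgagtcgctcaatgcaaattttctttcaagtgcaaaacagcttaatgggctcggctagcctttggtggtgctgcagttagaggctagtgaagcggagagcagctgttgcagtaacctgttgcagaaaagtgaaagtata

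The match lies in the 3′ part of the PCDHB7 window and is again in capitals. The shorter motif CGCT, known as the core of a conserved element of clustered protocadherin promoters, occurred in 14 of 14 PCDHB windows and 12 of 12 PCDHA and PCDHG windows. It also occurred in 70% of all windows. It is contained in GGTGGCGCT. A core of the CTCF motif, AGNNGGCGC, occurred in 2 of 14 PCDHB windows, against 10.4% of all windows. Those windows were PCDHB7 and PCDHB9, where it overlaps the GGTGGCGCT match and is not a separate site. These matches describe letters in a window and were not tested as binding sites.

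With sh_37 against the controls, the PCDHB cluster was higher as a group, as the heat map of all members shows. A gene was called, or said to rise or fall, where its limma p adjusted over all genes was under 0.05, and every difference is on the log2 scale. Of its 18 genes, 13 rose, none fell, 14 had both sh_37 arrays wholly above the 4 controls, and the median log2 difference was 0.71, against 0.01 over all genes. For comparison, 5.72% of all genes were called upward and 7.19% downward in this contrast, or 12.9% in either direction, and 13.9% had both arrays wholly above the controls. Over all 64 members 24 rose and 1 fell. Paralogous PCDHB transcripts are similar in sequence, so their probe sets may partly read one another and are not independent measurements. These are bulk samples, in which a change in the number of cells that express a gene and a change in RNA per cell cannot be told apart.

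**Figure D1:**
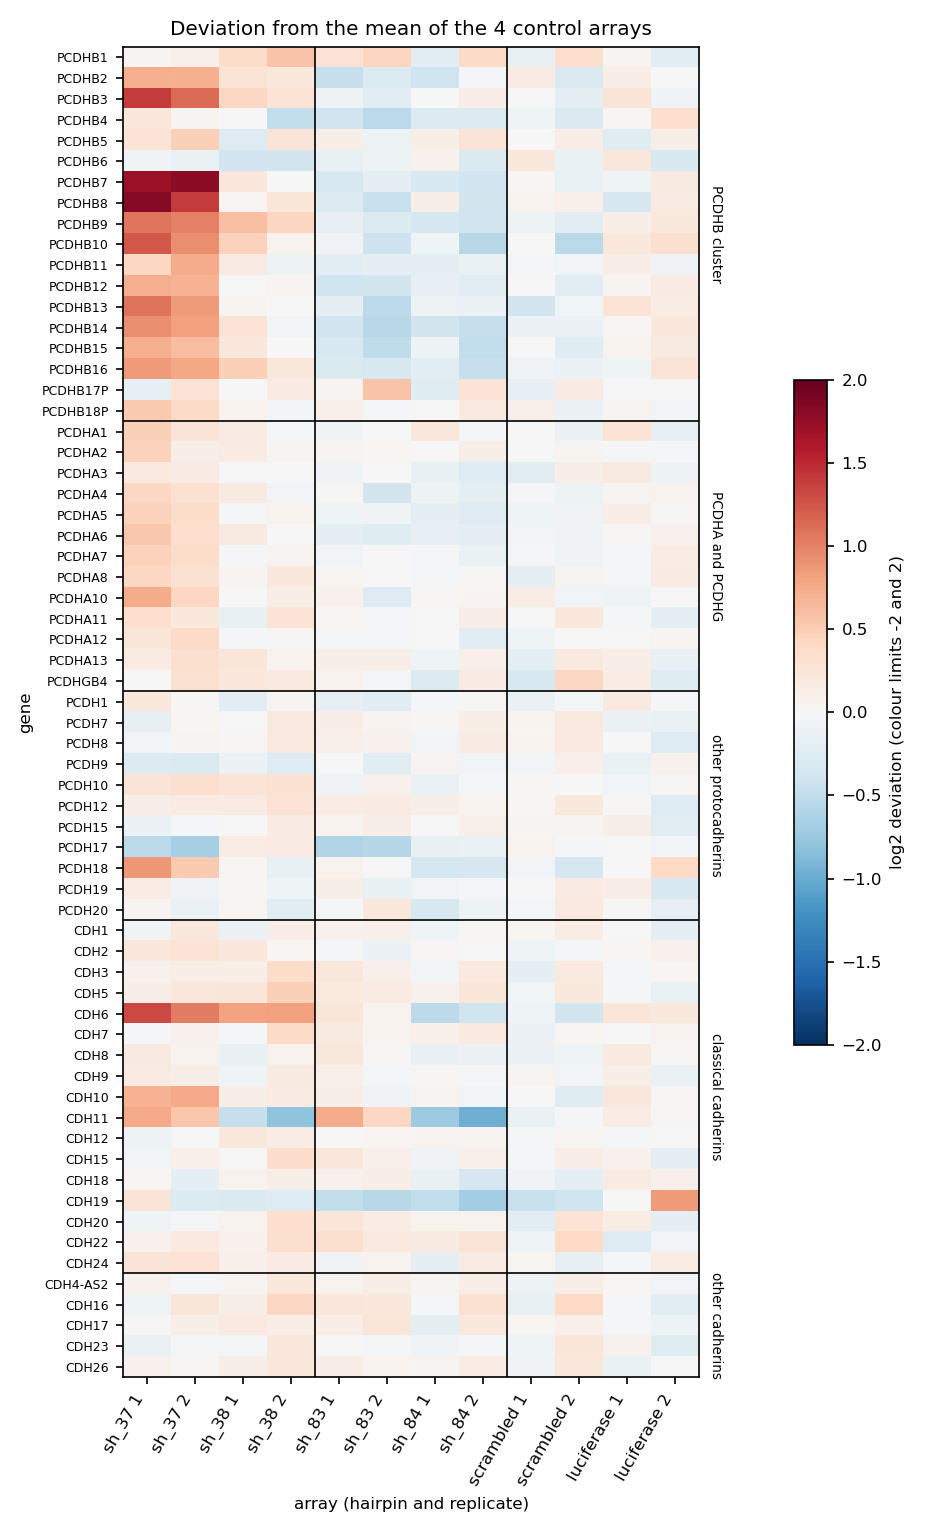
Heat map of the 64 genes (rows, in 5 groups) on the 12 arrays (columns), coloured by the log2 deviation from the mean of the 4 control arrays. Red fills most PCDHB rows in both sh_37 columns, and CDH6 is red in all 4 columns of sh_37 and sh_38.

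PCDHB7 read 8.38 and 8.46 with sh_37, against 6.71, 6.54, 6.59 and 6.84 on the scrambled and luciferase arrays. Both sh_37 arrays lay far above every other array of the series, and the log2 difference from the controls was 1.75 (SE 0.10, limma adjusted p = 3.9e-06), or 3.36-fold. PCDHB8 read 6.69 and 6.26 with sh_37, against 4.53 to 5.03 on the control arrays, a difference of 1.61 (SE 0.17, limma adjusted p = 0.000202). Again the sh_37 arrays overlapped with no other hairpin.

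PCDHB3 read 7.20 and 6.94 with sh_37, against 5.61 to 6.06 on the control arrays, a difference of 1.27 (SE 0.12). For PCDHB9 the sh_37 arrays read 9.77 and 9.72, against 8.48 to 8.93 on the control arrays, a difference of 1.03 (SE 0.08). PCDHB14 read 9.29 and 9.18 with sh_37, against 8.23 to 8.57 on the control arrays, a difference of 0.88 (SE 0.11). In all 3 genes the sh_37 arrays stood wholly above the controls, as they did for each of the 13 PCDHB genes that rose. The other rises were 1.08 for PCDHB10, 0.97 for PCDHB13, 0.81 for PCDHB16, 0.72 for PCDHB2, 0.71 for PCDHB12, 0.67 for PCDHB15, 0.58 for PCDHB11 and 0.46 for PCDHB18P, a pseudogene.

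The PCDHB genes that did not pass were PCDHB1, PCDHB4, PCDHB5, PCDHB6 and PCDHB17P. PCDHB1 read 4.82 and 4.86 with sh_37, against 4.53 to 5.09 on the control arrays, and PCDHB6 read 4.01 and 3.95, against 3.77 to 4.31. The arrays overlapped for both. PCDHB5 stood at 0.37 and did not pass. By their mean over all arrays, 10 of the 18 PCDHB genes lay among the dimmest 25% of genes. PCDHB3, PCDHB8, PCDHB11, PCDHB12, PCDHB13 and PCDHB15 were among these 10 and rose, and PCDHB1, PCDHB5, PCDHB6 and PCDHB17P made up the rest.

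**Figure D2:**
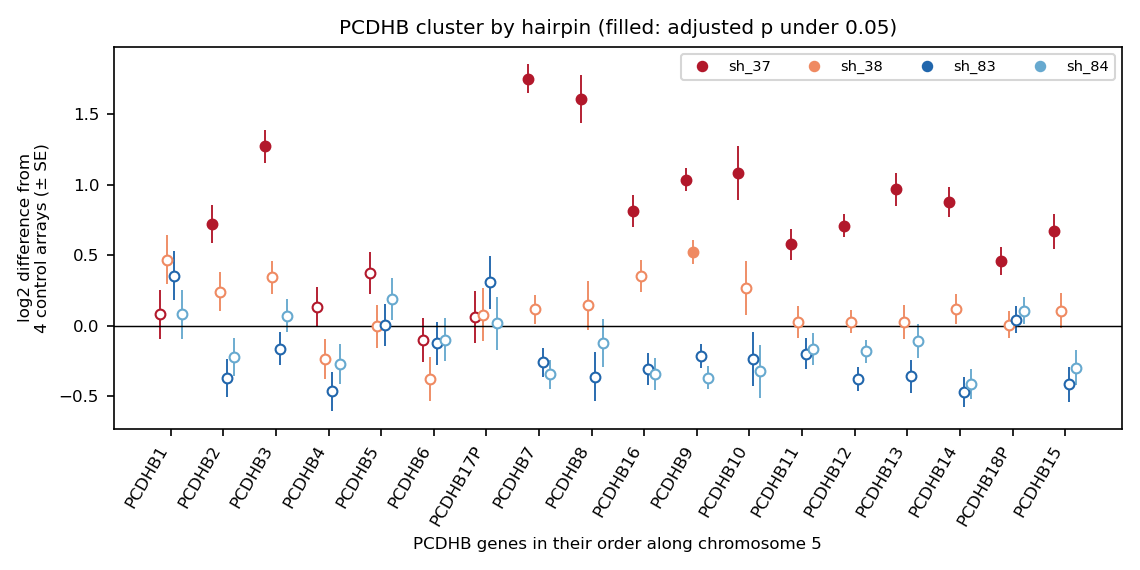
Log2 difference of each PCDHB gene from the 4 control arrays (y axis, with SE) for the 4 tested hairpins, in the genes' order along chromosome 5 (x axis), with filled points for an adjusted p under 0.05. The sh_37 points are filled at PCDHB2 and PCDHB3 and at each of the 11 genes from PCDHB7 to PCDHB15.

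Along the chromosome, the plot by gene order shows that the calls were not spread evenly. The 11 consecutive genes from PCDHB7, the 8th in order, to PCDHB15, the 18th, all passed with sh_37. Of the 7 genes before them, PCDHB2 and PCDHB3 passed. The size of the difference did not follow the order, since PCDHB7 and PCDHB8 at 1.75 and 1.61 stand beside PCDHB16 at 0.81.

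Without the first sh_37 array 12 members were called in place of 25, and 9 of the 13 PCDHB calls remained, while the cluster median was 0.73. Without the second, 21 members were called and 11 PCDHB calls remained. The share of all genes called without each sh_37 array is not given here. The lower counts thus cannot be read as particular to these members. With the scrambled or the luciferase arrays alone as the control, all 13 PCDHB calls remained and the cluster median was 0.80 and 0.63.

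Some PCDHA genes also rose with sh_37. A PCDHA transcript joins a first exon of its own to last exons that the whole cluster shares, so that a probe set may read several of them. Of the 13 PCDHA and PCDHG genes, 6 rose, none fell, and the median difference was 0.35. Over all genes, 5.72% were called upward in this contrast. PCDHA10 read 9.28 and 8.95 with sh_37, against 8.46 to 8.69 on the control arrays, a difference of 0.57 (SE 0.12, limma adjusted p = 0.00893). PCDHA6 read 8.71 and 8.52 with sh_37, against 8.12 to 8.27 on the control arrays, a difference of 0.44 (SE 0.08, limma adjusted p = 0.00582). The arrays were apart in both genes. PCDHA7, PCDHA5, PCDHA8 and PCDHA12 rose by 0.42, 0.41, 0.36 and 0.31. None of these 6 calls remained without the first sh_37 array. PCDHGB4 stood at 0.15 (SE 0.20) and did not pass.

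Outside the clusters, 2 of 11 protocadherins rose and 1 fell with sh_37, where 5.72% of all genes were called upward and 7.19% downward. PCDH17, a protocadherin of synapses in the mouse brain, read 7.81 and 7.67 with sh_37, against 8.28 to 8.42 on the control arrays. It was the single member that fell, by 0.60 (SE 0.08, limma adjusted p = 0.000495), and its arrays lay wholly below the controls. PCDH18 read 7.54 and 7.19 with sh_37, against 6.33 to 7.06 on the control arrays, a difference of 0.69 (SE 0.13). This call was lost without the first sh_37 array and with luciferase alone as the control. PCDH10, a protocadherin of axon growth in the mouse, rose by 0.29 (SE 0.08, limma adjusted p = 0.0351), and that call was lost without any 1 of the sh_37 or control arrays, with an adjusted p of up to 0.26. PCDH9 stood at -0.28 (limma adjusted p = 0.0913).

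Among the 17 classical cadherins, CDH6, CDH10 and CDH11 rose with sh_37 and none fell, where 5.72% of all genes were called upward. CDH6, a cadherin of kidney and of migrating neural crest, read 8.60 and 8.29 with sh_37, against 6.90 to 7.52 on the control arrays, a difference of 1.17 (SE 0.11, limma adjusted p = 8.17e-05). CDH10, a type II cadherin of the brain, read 6.23 and 6.30 with sh_37, against 5.29 to 5.75 on the control arrays, a difference of 0.73 (SE 0.10, limma adjusted p = 0.000875). Neither gene's sh_37 arrays overlapped with the controls. CDH11, a cadherin of mesenchymal cells and osteoblasts, read 8.79 and 8.58 with sh_37, against 7.89 to 8.17 on the control arrays. Its difference was 0.66 (SE 0.13, limma adjusted p = 0.00697), and the call was lost without the first sh_37 array.

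CDH1, CDH2, CDH3 and CDH5 did not pass in this contrast. CDH2, which encodes N-cadherin of mesenchymal and neural cells, read 12.21 and 12.25 with sh_37, against 11.89 to 12.07 on the control arrays. The arrays were apart, and the difference of 0.26 missed the threshold (SE 0.08, limma adjusted p = 0.0515). CDH1, which encodes the epithelial E-cadherin, stood at 0.08 (SE 0.11), CDH3, which encodes P-cadherin, at 0.11 (SE 0.12), and CDH5, which encodes the endothelial VE-cadherin, at 0.19 (SE 0.10). CDH1 and CDH3 lay among the dimmest 25% of genes, as did 30 of the 64 members. No gene of the 5 other cadherins was called.

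Some cell type markers were also called with sh_37. Over all genes, 12.9% were called in this contrast, 5.72% upward and 7.19% downward. Fibroblast markers COL1A1 and LUM rose by 0.69 and 1.27, 2 of 8 measured, and the mean level of that list was 6.87 to 6.94 with sh_37 and 6.44 to 6.66 on the controls, while PDGFRA and DCN were among the dimmest 25% of genes. The neuronal marker NEFL rose by 1.33, 1 of 6 measured, and the mean of that list was 7.81 to 7.82 with sh_37 and 7.51 to 7.68 on the controls. The leukocyte markers LYZ and CD68 fell by 0.82 and 0.58, 2 of 5 measured, with list means of 6.48 to 6.51 with sh_37 and 6.66 to 6.87 on the controls, and PTPRC, CD3E and LYZ itself were among the dimmest 25% of genes. SOX10 fell by 0.30. No keratinocyte marker (of 7) and no endothelial marker (of 7) was called. The part of these genes in the members' differences was not tested. With the other hairpins, NEFL rose by 0.88 and LUM by 0.38 with sh_38, NEFL rose by 0.61 with sh_83, and LUM fell by 0.85 with sh_84. LUM averaged 9.19 with sh_38, 8.43 with scrambled and 9.20 with luciferase, so its sh_38 arrays overlapped with the controls.

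With sh_38, the other H2AZ2 hairpin, 3 of the 64 members passed, against 4.6% of all genes in either direction, 1.28% upward and 3.33% downward. CDH6 rose, at 8.08 and 8.08 with sh_38, against 6.90 to 7.52 on the control arrays, a difference of 0.81 (SE 0.11, limma adjusted p = 0.00281). PCDHB9 rose, at 9.32 and 9.15 with sh_38, against 8.48 to 8.93 on the control arrays, a difference of 0.52 (SE 0.08, limma adjusted p = 0.00642). Both genes stood wholly above the controls, and the PCDHB9 call was lost with luciferase alone as the control (limma adjusted p = 0.0763). CDH11 fell, at 7.57 and 7.23 with sh_38, against 7.89 to 8.17 on the control arrays, a difference of -0.63 (SE 0.13, limma adjusted p = 0.0206). The CDH11 call was lost without the second sh_38 array, without either luciferase array and with scrambled alone as the control, with an adjusted p of up to 0.272.

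The PCDHB cluster as a whole stood near the controls with sh_38. Its median difference was 0.11, against 0.03 over all genes, 15 of 18 genes were above 0, 1 was called, and 4 lay wholly above the controls, against 9.49% of all genes. With scrambled and luciferase alone as the control the median was 0.19 and 0.03. The median was 0.19 on the first sh_38 array and 0.06 on the second, as deviations from the control mean, against 0.73 on each sh_37 array. PCDHB7 read 6.90 and 6.67 with sh_38, against 6.54 to 6.84 on the control arrays, which overlap. PCDHB1 and PCDHB16 stood at 0.47 and 0.35 without passing. The highest cadherin that did not pass was CDH5 at 0.36 (SE 0.10, limma adjusted p = 0.0784).

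**Figure D3:**
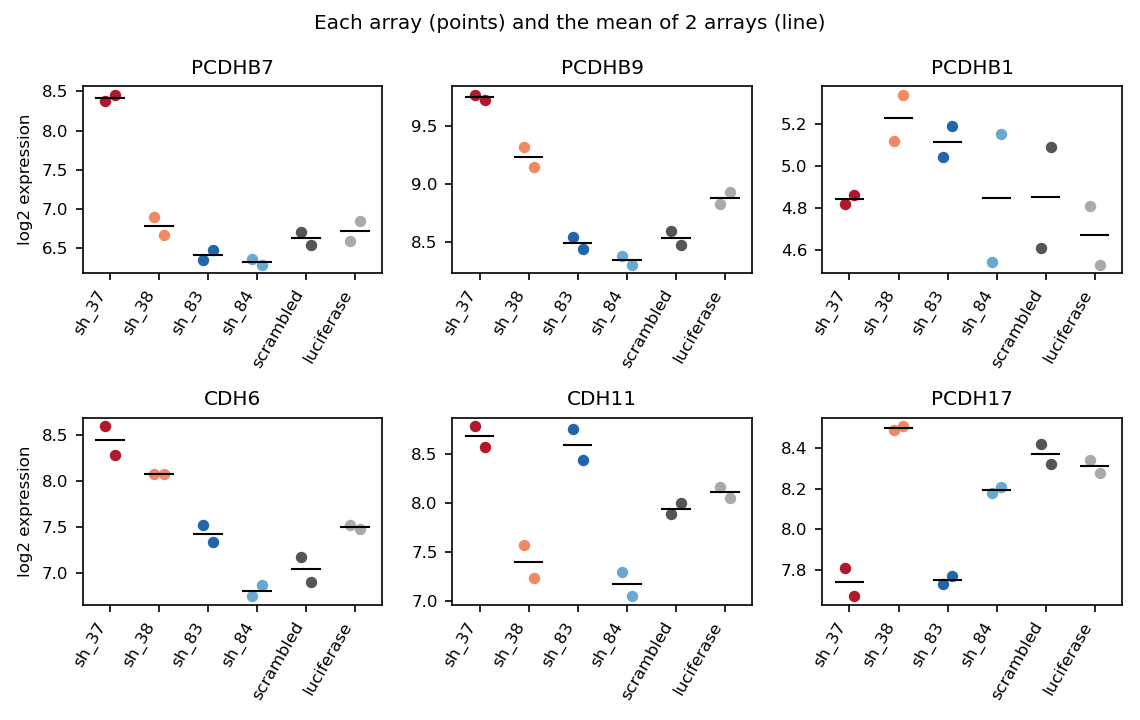
Log2 expression of 6 genes on each array (points) with the mean of the 2 arrays of a hairpin (line), tested hairpins on the left and controls on the right of each panel. PCDHB7 is high only on the sh_37 arrays, whose values are 8.38 and 8.46, while CDH11 is high with sh_37 and sh_83 and low with sh_38 and sh_84.

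The direct test of sh_37 against sh_38 asked whether the H2AZ2 hairpins differed in these genes. It called 16 members, 15 higher with sh_37 and 1 lower, against 6.27% of all genes in either direction, 4.07% upward and 2.2% downward. Of these, 10 were PCDHB genes, and the cluster median was 0.53, against -0.03 over all genes. The largest were PCDHB7 at 1.63 (SE 0.12, limma adjusted p = 3.93e-05) and PCDHB8 at 1.46 (SE 0.20, limma adjusted p = 0.00168). PCDHB9, called with both hairpins against the controls, was also higher with sh_37 than with sh_38, by 0.51 (SE 0.10). Leaving out 1 array brought the count of called members as low as 8, without the first sh_37 or the second sh_38 array, and to 9 without the second sh_37 array.

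The panels of single genes show that CDH11 and PCDH17 followed other patterns over the hairpins than the PCDHB genes did. CDH11 had the largest difference between the H2AZ2 hairpins among the cadherins. It read 8.79 and 8.58 with sh_37, against 7.57 and 7.23 with sh_38, a difference of 1.29 (SE 0.15, limma adjusted p = 0.000663). PCDH17 read 7.81 and 7.67 with sh_37, against 8.49 and 8.51 with sh_38, a difference of -0.76 (SE 0.09, limma adjusted p = 0.000595). CDH10, PCDH18, PCDHA5 and PCDHA7 were higher with sh_37 by 0.58, 0.74, 0.39 and 0.40. CDH6 was not called between the hairpins. H2AZ2 itself was lower with sh_37 than with sh_38, by 0.50 (SE 0.09, limma adjusted p = 0.00763), and the fall of H2AZ2 and the hairpin cannot be told apart.

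With sh_83, the H2AZ1 hairpin that lowered its target, the PCDHB cluster stood on the other side of the controls without any PCDHB gene passing. The cluster median was -0.25, against 0.01 over all genes, and 14 of 18 genes were below 0. Both sh_83 arrays lay wholly below the 4 controls in 7 of 18 PCDHB genes, against 10.9% of all genes. The medians with scrambled and luciferase alone as the control were -0.17 and -0.34. PCDHB14 read 7.97 and 7.80 with sh_83, against 8.23 to 8.57 on the control arrays, and PCDHB4 read 6.06 and 5.91, against 6.15 to 6.78. Each stood at -0.47 without passing.

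PCDH17 was the 1 member called with sh_83, where 0.641% of all genes passed in either direction and 0.489% downward. It read 7.73 and 7.77 with sh_83, against 8.28 to 8.42 on the control arrays, a difference of -0.59 (SE 0.08, limma adjusted p = 0.00693), and the call was lost without either sh_83 array. Without the second scrambled array 2 members were called. CDH11 read 8.76 and 8.44 with sh_83, against 7.89 to 8.17 on the control arrays, and its difference of 0.57 missed the threshold (SE 0.13, limma adjusted p = 0.0949). CDH6 stood at 0.16 and CDH2 at -0.08.

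The arrays labelled sh_84, where H2AZ1 was not measurably lower, gave 1 called member, against 0.353% of all genes in either direction and 0.342% downward. CDH11 read 7.30 and 7.05 with sh_84, against 7.89 to 8.17 on the control arrays, a fall of 0.855 (SE 0.13, limma adjusted p = 0.0289). The call was lost without any 1 of the 4 control arrays, without either sh_84 array and without either sh_37 array, with adjusted p up to 0.423. The PCDHB median was -0.17 and 5 of 18 genes lay wholly below the controls, against 9.53% of all genes. CDH6 stood at -0.46 and CDH19 at -0.59, and neither passed. CDH19 read 5.28 and 5.08 with sh_84, against 5.33 and 5.38 with scrambled and 5.77 and 6.63 with luciferase.

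The control hairpins differed from each other in the same direction for most PCDHB genes. With scrambled against luciferase no member and no gene of the series was called by limma, while 1384 genes and 5 of the 18 PCDHB genes had an unadjusted p under 0.05. The PCDHB median was -0.15, 14 of 18 genes were lower with scrambled, and 7 of 18 lay wholly below luciferase, against 17.1% of all genes. The lowest were CDH19 at -0.85, PCDHB10 at -0.53, CDH6 at -0.45 and PCDHB13 at -0.42. CDH19, a cadherin of the neural crest and Schwann cell lineage, read 5.33 and 5.38 with scrambled, and 5.77 and 6.63 with luciferase, so that the second luciferase array stood above every other array. Side by side, as in the plot by gene group, the PCDHB medians were 0.71 for sh_37, 0.11 for sh_38, -0.25 for sh_83 and -0.17 for sh_84 against the controls, and -0.15 for scrambled against luciferase.

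**Figure D4:**
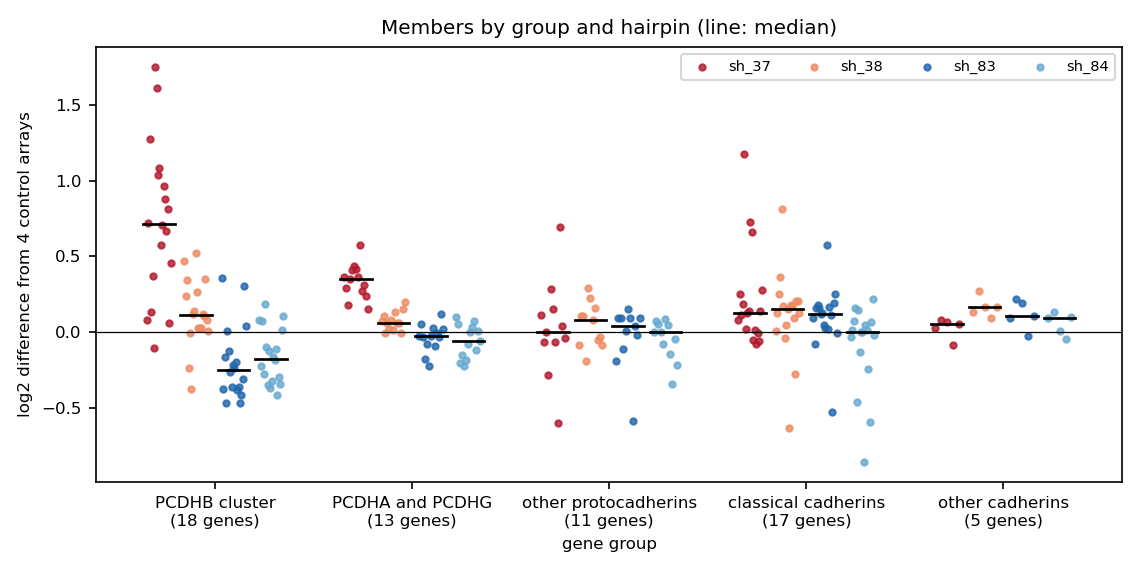
Log2 difference from the 4 control arrays (y axis) of every member (points) by gene group and tested hairpin, with the median of each group as a line. The PCDHB median is 0.71 with sh_37, 0.11 with sh_38, -0.25 with sh_83 and -0.17 with sh_84, while the other groups have medians between -0.06 and 0.35.

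Taking both hairpins of a target as one group of 4 arrays, with the hairpin as a random block, 4 members rose and none fell with the H2AZ2 hairpins against the controls, where 3.31% of all genes passed, 0.863% upward and 2.44% downward. CDH6 was higher on all 4 arrays, which averaged 8.26 ± 0.24 (SD, n = 4), against 7.27 ± 0.29 on the controls, a difference of 0.99 (SE 0.19, limma adjusted p = 0.0133). PCDHB9 averaged 9.49 ± 0.31 with the H2AZ2 hairpins and 8.71 ± 0.20 on the controls, a difference of 0.78 (SE 0.14, limma adjusted p = 0.0113). PCDH10 averaged 7.42 ± 0.03 with the H2AZ2 hairpins and 7.13 ± 0.04 on the controls, a difference of 0.29 (SE 0.07, limma adjusted p = 0.0457). In these 3 genes the 4 arrays stood wholly above the controls, as 5 members and 4.14% of all genes did. The PCDH10 call was lost in 17 of 25 alternatives. PCDHB16 was called at 0.58 (SE 0.14, limma adjusted p = 0.0344), with arrays that overlap.

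The PCDHB median over both hairpins was 0.43. It was 0.11 without sh_37 and 0.71 without sh_38, and the count of called members was 0 and 22 in these fits. No member was called without scrambled or without luciferase, or without the first scrambled array. The count was 2 without either sh_37 array or without the first luciferase array. Shares of all genes called in these reduced fits are not given here. The changes in count thus cannot be read as particular to these members.

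With the H2AZ1 hairpins against the controls, limma called 0 members and 0% of all genes, while 636 genes and 5 members had an unadjusted p under 0.05. The PCDHB median was -0.26 and 4 of 18 genes lay wholly below the controls, against 2.58% of all genes. The lowest members were CDH19 at -0.56, PCDHB14 at -0.44, PCDHB4 at -0.37 and PCDH17 at -0.36.

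Set directly against the H2AZ1 hairpins, the H2AZ2 hairpins had 12 members higher and none lower, against 4.35% of all genes in either direction, 2.08% upward and 2.28% downward. The called genes were PCDHB2, PCDHB3, PCDHB7, PCDHB9, PCDHB10, PCDHB12, PCDHB14, PCDHB15 and PCDHB16 with PCDHA6, PCDH10 and CDH6. The cluster median was 0.74, against 0.02 over all genes. PCDHB9 averaged 9.49 ± 0.31 with the H2AZ2 hairpins and 8.42 ± 0.10 with the H2AZ1 hairpins (SD, n = 4), a difference of 1.07 (SE 0.14, limma adjusted p = 0.00284), and CDH6 differed by 1.14 (SE 0.19, limma adjusted p = 0.00571). All 12 called genes had the 4 arrays of the H2AZ2 hairpins wholly above the others, and 11 of the 18 PCDHB genes did so, against 6.43% of all genes. Leaving out a whole hairpin moved the count to 4 without sh_37, 24 without sh_38, 5 without sh_83 and 2 without sh_84. Shares of all genes called in those fits are not given here, so these changes cannot be read as particular to the members. Leaving out 1 array gave 5 to 16 members, with 8 or fewer without either sh_37 array, the second sh_83 array, either sh_84 array, or the first scrambled or luciferase array.

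Comparing sh_37 with sh_83, the hairpins with the larger falls of their own targets, 23 members were higher and none lower, against 7.63% of all genes in either direction, 4.4% upward and 3.23% downward. Of the 18 PCDHB genes 14 were higher, and the cluster median was 1.09. PCDHB7 read 8.38 and 8.46 with sh_37, against 6.35 and 6.47 with sh_83, a difference of 2.01 (SE 0.12, limma adjusted p = 6.52e-06). PCDHB4, the PCDHB gene called here and not with sh_37 against the controls, differed by 0.60 (SE 0.16, limma adjusted p = 0.0488). That call was lost in 11 of 19 alternatives, with an adjusted p of up to 0.309. The PCDHA genes higher with sh_37 were PCDHA6 and PCDHA10, both by 0.66, PCDHA4 by 0.53, PCDHA5 by 0.49 and PCDHA7 by 0.44. PCDH18 was higher by 0.65. CDH6, CDH10 and CDH2 were the classical cadherins higher with sh_37, by 1.02, 0.70 and 0.34, and the CDH2 call was lost in 10 of 19 alternatives, with an adjusted p of up to 0.301. PCDH17, low with both, was not called between them. The count was 14 without the first sh_37 array and 13 without the second sh_83 array.

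Partners of these genes were examined as lists. Over all genes, 12.9% were called in either direction with sh_37, 4.6% with sh_38, 0.641% with sh_83 and 0.353% with sh_84. Of the catenins and plaque proteins, several of which tie cadherins to the cytoskeleton, 14 of 15 were measured. With sh_37, JUP (plakoglobin), ARVCF and CTNND2 rose by 1.21, 0.38 and 0.35, and CTNNAL1 fell by 0.70, with a list median of 0.00. With sh_38, CTNNAL1 and PKP2 fell by 0.55 and 0.43, and with sh_83 PKP4 fell by 0.62. JUP was higher with sh_37 than with sh_38 by 1.34 (SE 0.11, limma adjusted p = 9.96e-05).

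Other genes of the cadherin superfamily, among them the large FAT and CELSR proteins and the calsyntenins, had 24 of 25 members measured. With sh_37, CLSTN2, CLSTN3, FAT4 and CELSR1 rose by 1.37, 0.79, 0.59 and 0.41 and none fell, with a list median of 0.09. These were 4 of 24, where 5.72% of all genes were called upward. CLSTN2, a calsyntenin of synaptic membranes, also rose with sh_38, by 0.69. With sh_84, FAT3 rose by 0.45.

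Of 10 transcription factors that repress or switch cadherin genes, ZEB2 rose by 0.44 and ZEB1 fell by 0.32 with sh_37. Of 9 measured genes of cadherin cleavage and trafficking, ADAM17 and NCSTN rose by 0.46 and 0.32 with sh_37. Over all genes, 5.72% were called upward and 7.19% downward in that contrast. None of these lists' genes was called with sh_38 against the controls.

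Of 16 chromatin factors known to act at the clustered protocadherin genes, 6 fell with sh_37 and none rose, in the contrast where 7.19% of all genes were called downward. CTCF fell by 0.35, the cohesin subunits SMC1A and STAG1 by 0.50 and 0.76, the cohesin regulator PDS5A by 0.27, SMCHD1, which acts in silencing of these clusters, by 0.45, and the DNA methyltransferase DNMT1 by 0.32. Over the list, the median difference stood at -0.21 for sh_37 and at -0.28 for sh_38, and sh_38 called none of the 16. CTCF also fell with the H2AZ2 hairpins together, by 0.32 (SE 0.07, limma adjusted p = 0.0281). None of the 16 was called between sh_37 and sh_38, and their part in the PCDHB differences was not tested.

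In the direct comparisons further list genes were called. Over all genes, 6.27% were called between sh_37 and sh_38 and 7.63% between sh_37 and sh_83. Between sh_37 and sh_38, CLSTN2, CLSTN3, PKP2, CELSR1 and FAT3 were higher with sh_37, by 0.67, 0.58, 0.54, 0.40 and 0.34. Between sh_37 and sh_83, JUP, CLSTN2, CLSTN3, PKP4, SNAI1, ZEB2 and FAT3 were higher with sh_37, by 1.31, 1.17, 0.71, 0.57, 0.50, 0.46 and 0.46, while CTNNAL1 and STAG1 stood at -0.64 and -0.56 and were called. With the H2AZ2 hairpins against the controls CLSTN2 rose by 1.03 and CTNNAL1 fell by 0.63. Against the H2AZ1 hairpins CLSTN2 was higher by 0.90, and CTNNAL1 and DNMT1 fell by 0.63 and 0.35. The marker SYT1 was also higher there, by 0.49, as was NEFL, and EDNRB fell by 0.37. NEFL was also called upward with the H2AZ2 hairpins against the controls. Of the markers, LUM at 0.89, LYZ at -0.68 and CD68 at -0.86 were called for sh_37 minus sh_38. For sh_37 minus sh_83, LUM at 1.04, NEFL at 0.72, SYT1 at 0.56, CD68 at -0.75 and EDNRB at -0.46 were called.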

How the data were processed

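The authors deposited RMA values of each probe set on the log2 scale, as the submitters' processing notes state, and the version of RMA is not given in the sources used here. The medians of the arrays ran from 7.0 to 7.1, and no further normalization was applied. Of 33297 probe sets, 19460 had 1 gene symbol, and the brightest of a gene by mean over all arrays was kept. PCDHA2 was the 1 member with several. No scan dates were analysed here, and signal over background is unknown.

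Tests used limma 3.58.1 in R 4.3.3, two-sided, with Benjamini-Hochberg adjustment over 18417 genes and a threshold of 0.05. Comparisons by target used 3 targets with hairpin as a random block (consensus correlation 0.157). Single hairpins came from a fit with 6 hairpins as groups, which leaves out spread between hairpins of a target. Each SE comes from its fit. The tests were tried on simulated data to which spread between hairpins was added. The fit by hairpin leaves that spread out and made more false calls than its threshold states, an outcome set by the simulation's design. Where hairpins differ in this way, single-hairpin calls are less certain than their adjusted p, above all those near the threshold.

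The members and lists were chosen with earlier results of these data known. Named are every PCDHB gene, every called member, the 4 highest and 4 lowest members where described, the best-known cadherins, the targeted genes and called list genes. Promoter matches were counted on both strands. Alternatives covered the block, arrays, hairpins and controls left out, averaging of probe sets, dim genes, centring, renormalization and the variance model. Counts of called members in an alternative stand without the share of all genes called in it. Figures were drawn with matplotlib 3.10.9.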

Additional observations from a re-analysis of the deposited data

Results flagged for a closer look

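Between the H2AZ2 hairpins, 16 members differed by the direct test of sh_37 against sh_38 (limma, adjusted over all genes). The log2 differences, sh_37 minus sh_38, were 1.63 for PCDHB7, 1.46 for PCDHB8, 0.94 for PCDHB13, 0.93 for PCDHB3, 0.76 for PCDHB14, 0.68 for PCDHB12, 0.56 for PCDHB15, 0.55 for PCDHB11, 0.51 for PCDHB9 and 0.45 for PCDHB18P in the PCDHB cluster. Elsewhere they were 0.40 for PCDHA7, 0.39 for PCDHA5, 0.74 for PCDH18, -0.76 for PCDH17, 0.58 for CDH10 and 1.29 for CDH11.

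In 7 of 192 groups of 4 arrays, the gap between 1 array and the nearest other made up most of the group's range (Dixon's criterion), where chance gives about 1 in 20 groups, or 9.6. The criterion is relative, and some gaps were small: CDH12 read 4.59 on that array and 4.64 to 4.65 on the other 3. With the H2AZ2 hairpins these were CDH19 at 6.04 on the first sh_37 array and CDH3 at 6.34 on the second sh_38 array, both high. With the H2AZ1 hairpins they were PCDHA12 at 7.81 on the second sh_84 array, PCDHA13 at 7.89 on the first sh_84 array and CDH12 on the first sh_83 array, all low. Among the controls, PCDHB16 was high at 7.94 on the second luciferase array and PCDH10 low at 7.07 on the first.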

How the results depend on the processing

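No called member changed sign in any alternative. Over all called members, comparisons and alternatives the call remained in 1480 cases and was lost in 266. Leaving out each array gave 12 to 26 called members for sh_37 (25 with all arrays), 2 to 4 for sh_38 (3), 0 to 2 for sh_83 (1), 0 to 1 for sh_84 (1), 8 to 19 for sh_37 against sh_38 (16), 13 to 23 for sh_37 against sh_83 (23), 0 to 6 for the H2AZ2 hairpins (4) and 5 to 16 for the H2AZ2 against the H2AZ1 hairpins (12). The PCDHB medians ran from 0.63 to 0.79 for sh_37, 0.06 to 0.19 for sh_38, -0.29 to -0.20 for sh_83, 0.45 to 0.64 for sh_37 against sh_38 and 0.33 to 0.53 for the H2AZ2 hairpins. For the H2AZ2 hairpins the count was 0 without sh_37, 22 without sh_38, and 0 without scrambled or without luciferase. Against the H2AZ1 hairpins it was 4 without sh_37, 24 without sh_38, 5 without sh_83, 2 without sh_84 and 7 after quantile normalization. The sh_37 PCDHB median was 0.80 with scrambled alone, 0.63 with luciferase alone, 0.84 without the dimmest 25% of genes, 0.72 after centring and 0.68 after quantile normalization, and for sh_37 against sh_38 it was 0.50 without the dimmest genes. For sh_83 the median was -0.17 with scrambled alone and -0.34 with luciferase alone, and 3 members were called with a robust variance trend. For sh_84 the count was 0 with scrambled alone, 3 with luciferase alone and 0 after quantile normalization. Leaving the arrays labelled sh_84 out of the fit by hairpin, chosen after seeing the data, gave 25, 3, 1, 16 and 20 members for sh_37, sh_38, sh_83, sh_37 against sh_38 and sh_37 against sh_83. The cause of these shifts was not tested, and the share of all genes called in each alternative is not given here. The main fits did not pair arrays by replicate number, since deviations of arrays with the same number did not correlate above 0.1 in every pair of hairpins. Over 15 pairs the correlation ran from -0.469 to 0.677, above 0.1 in 9 of them and below 0 in 4 of the 5 with luciferase. Among sh_37, sh_38, sh_84 and scrambled it ran from 0.375 to 0.677. These hairpins thus shared deviations by replicate number that the main fits left out. With a replicate block the counts were 2 for the H2AZ2 hairpins, with 1 of the 2 PCDHB calls kept, and 2 for sh_83, and for sh_37 all 13 PCDHB calls were kept.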
